A study of Mus musculus with 14 samples.

Results

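The genes described are 10 that mouse antigen-presenting cells use to show peptides to helper T cells on major histocompatibility complex (MHC) class II molecules. They are the class II chains H2-Aa, H2-Ab1 and H2-Eb1, the invariant chain Cd74, the peptide-exchange subunits H2-DMa, H2-DMb1 and H2-DMb2, the transactivator Ciita and the costimulators Cd80 and Cd86. They were listed by name for their known roles, with earlier results of these data known, and matched by gene identifier to the deposited count tables. All 10 were found among 21761 genes, and all 10 had enough exon counts to be tested, as did 13884 genes in all.

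Bone marrow-derived macrophages of FVB/Hsd mice were compared after knockdown of Wdr82 by retroviral short hairpin RNA and after infection with a scrambled hairpin. All cells were selected with puromycin, taken at differentiation day 7 and left untreated, so every group carries a virus and a hairpin. The knockdown group has 1 library for hairpin sh1137 and 1 for hairpin sh830, and the control group has scrambled 1 and scrambled 2. These 4 libraries are of ribosomal RNA-depleted total RNA. The labels do not say whether they came from separate animals or cultures, so p-values cannot be read as measuring spread between animals. They apply to these 4 libraries only, and the variance behind them is described with the fits below.

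MHC class II molecules are dimers of an alpha and a beta chain that bind peptides in endosomes. The invariant chain guides new dimers there and blocks their groove until proteases degrade it, and the DM dimer then exchanges its remnant for peptides. In most class II genes a conserved promoter module of X, X2 and Y boxes is bound by the RFX complex, CREB-family proteins and NF-Y, and CIITA is recruited to it as the coactivator that switches the genes on. Macrophages hold class II at a low level until interferon gamma induces Ciita.

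Promoter sequences of 4 members are shown, those whose windows held matches to these boxes, which class II chain and DM genes are known to share. These are the windows of H2-Aa and H2-Eb1, whose RNA rose, and of H2-DMb1 and H2-DMb2, whose RNA did not pass the test. RefSeq promoter entries (build GRCm38.p6, 250 bases before to 50 after the annotated start) matched 6 of the 10 members. No entry was matched for H2-Ab1, Cd74, Ciita and Cd86. The windows are chr17:34287774-34288073 on the minus strand for H2-Aa, chr17:34305617-34305916 on the plus strand for H2-Eb1, chr17:34152941-34153240 on the plus strand for H2-DMb1 and chr17:34144999-34145298 on the plus strand for H2-DMb2. They are written 5′ to 3′ in the direction of the gene. Capitals mark the matches to the Y box letters TGATTGG, the X box letters AACNGATG and the X2 box letters TGACGTCA, which were searched on both strands and were chosen after these sequences had been read.
H2-Aa: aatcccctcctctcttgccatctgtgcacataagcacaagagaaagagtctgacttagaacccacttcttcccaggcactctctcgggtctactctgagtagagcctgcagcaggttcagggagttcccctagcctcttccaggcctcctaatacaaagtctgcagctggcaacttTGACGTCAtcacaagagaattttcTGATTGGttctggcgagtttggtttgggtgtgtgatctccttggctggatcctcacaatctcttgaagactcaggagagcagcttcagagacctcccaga
H2-Eb1: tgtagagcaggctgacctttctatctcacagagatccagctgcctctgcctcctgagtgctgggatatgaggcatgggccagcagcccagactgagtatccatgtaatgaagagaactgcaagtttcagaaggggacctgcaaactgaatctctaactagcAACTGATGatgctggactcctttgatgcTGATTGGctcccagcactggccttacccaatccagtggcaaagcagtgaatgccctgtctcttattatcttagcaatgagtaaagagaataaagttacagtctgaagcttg
H2-DMb1: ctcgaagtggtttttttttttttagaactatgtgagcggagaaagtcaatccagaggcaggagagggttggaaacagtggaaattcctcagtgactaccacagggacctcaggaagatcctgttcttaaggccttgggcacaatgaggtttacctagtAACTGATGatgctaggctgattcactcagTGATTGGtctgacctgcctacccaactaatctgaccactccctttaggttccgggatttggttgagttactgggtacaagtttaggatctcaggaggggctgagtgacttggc
H2-DMb2: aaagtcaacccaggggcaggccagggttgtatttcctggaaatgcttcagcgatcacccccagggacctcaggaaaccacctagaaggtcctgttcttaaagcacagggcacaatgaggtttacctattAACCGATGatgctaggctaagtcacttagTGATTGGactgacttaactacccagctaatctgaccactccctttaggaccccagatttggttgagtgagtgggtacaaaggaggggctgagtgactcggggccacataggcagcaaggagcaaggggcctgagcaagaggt

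Each of the 4 windows held 1 Y box, and each held 1 X or X2 box upstream of it on the strand of the gene. With positions before the annotated start given as negative, the Y box was centred at -47 bp in H2-Aa, -58 bp in H2-Eb1, -60 bp in H2-DMb1 and -89 bp in H2-DMb2. Between the X and Y boxes lay 20 bases in H2-Eb1 and 21 bases in each DM beta gene, and between the X2 and Y boxes of H2-Aa lay 16 bases. The X box match read AACTGATG in H2-Eb1 and H2-DMb1 and AACCGATG in H2-DMb2. No match was found in the window of Cd80 or in those of H2-DMa, at chr17:34122582-34122881 and chr17:34125268-34125567 for its alternative annotated starts. Other sequence of H2-DMa was not searched. Of all 32851 promoter windows of 300 bases, 7.82% held the Y box letters, 2.32% the X box letters and 1.79% the X2 box letters. The letters were chosen after the sequences had been read, and the 4 windows are shown for their matches. The shares are therefore no test of whether members hold the boxes more often. No motif overlapped another in the 4 windows shown. The DM beta genes share this arrangement with H2-Eb1. Their exon levels, given further on, lay below both scrambled libraries but did not pass the test, and their separate values are uncertain. Whether the boxes bear on any change was not tested.

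**Figure D1:**
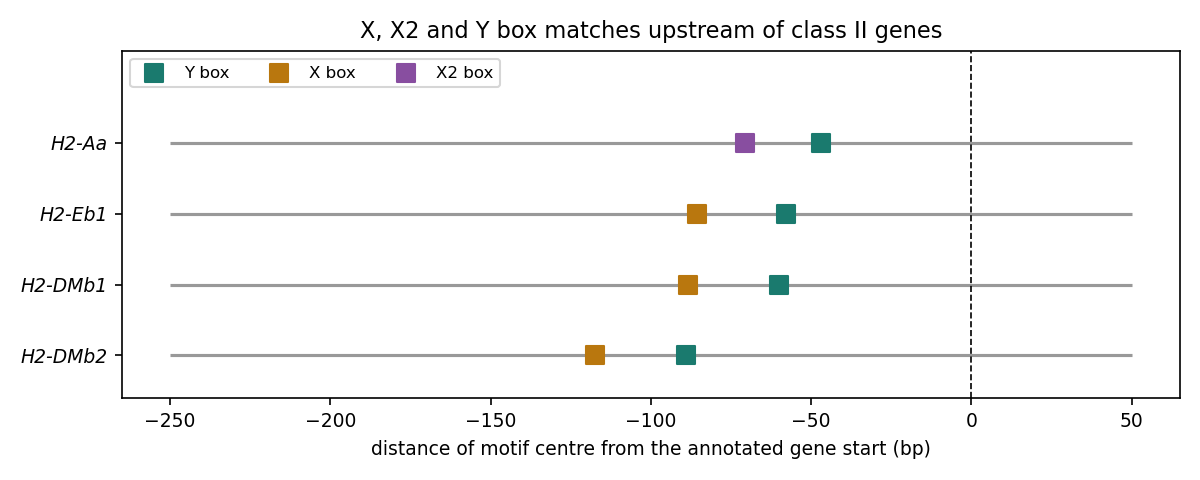
Positions of Y, X and X2 box matches in the promoter windows of H2-Aa, H2-Eb1, H2-DMb1 and H2-DMb2, with the distance of each motif centre from the annotated gene start in bp on the x axis and 1 line per gene. In every window a Y box lies nearest the start, with an X or X2 box upstream of it.

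The libraries hold 34787556 to 43372731 exon counts. They fall into a pair rich in intron counts, with an intron share of 44.2% in sh1137 and 40.4% in scrambled 1, and a pair poor in them, with 15.2% in sh830 and 14.6% in scrambled 2. This split crosses the groups, its source is not given in the sources used here, and the fits carry a term for it beside the group term. Within the knockdown group the split is also the difference between the hairpins sh1137 and sh830, and these cannot be told apart there. The term leaves 1 residual degree of freedom, the disagreement between the 2 within-pair differences, and was chosen with earlier results of these data known. To this, edgeR adds 4.34 prior degrees of freedom over exons and 5.55 over introns, drawn from all genes. The SE and p of a gene in this fit thus rest mostly on variance shared across genes. Spread between the library pairs is not part of them. Every call below is from that fit, and values from the group term alone stand beside it. Levels are counts per 1000000 exon counts in genes (CPM), scaled by TMM factors.

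Wdr82, the targeted gene, encodes a subunit of histone methyltransferase and phosphatase complexes that bind RNA polymerase II. It was at 25.1 CPM in sh1137 and 40.7 CPM in sh830, against 100.3 CPM in scrambled 1 and 144.1 CPM in scrambled 2. It fell by 1.91 ± 0.09 on the log2 scale (SE, adjusted p = 0.00216 by Benjamini-Hochberg, edgeR quasi-likelihood test), and its adjusted p without the library term was 0.441.

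With Wdr82 knockdown, exon counts of the class II alpha and beta chains and of the invariant chain rose, and no other member passed the test. Of the 10 members tested, 4 rose (H2-Aa, H2-Ab1, H2-Eb1 and Cd74) and 0 fell, where 6.06% of the genes tested rose and 7.79% fell. The changes of the 4 ran from 1.43-fold for H2-Ab1 to 3.15-fold for H2-Eb1. The median log2 change of the 10 members was 0.42, beside -0.01 over all genes tested. With the group term alone 0 of the 10 were called in edgeR, 0 had an unadjusted p under 0.05, and the adjusted p ran between 0.729 and 1.0. That edgeR fit called 0 of 13884 genes, or 0.0% in each direction, while at an unadjusted p under 0.05 it had 3.15% higher and 1.51% lower. DESeq2 with the group term alone also called 0 of the 10, where it called 0.914% of genes higher and 0.126% lower. Leaving out any 1 of the 4 libraries, which also removes the library term, left 0 members called, and without sh1137 the log2 change was 0.20 for Cd74, 0.33 for H2-Aa, 0.07 for H2-Ab1 and 0.99 for H2-Eb1.

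**Figure D2:**
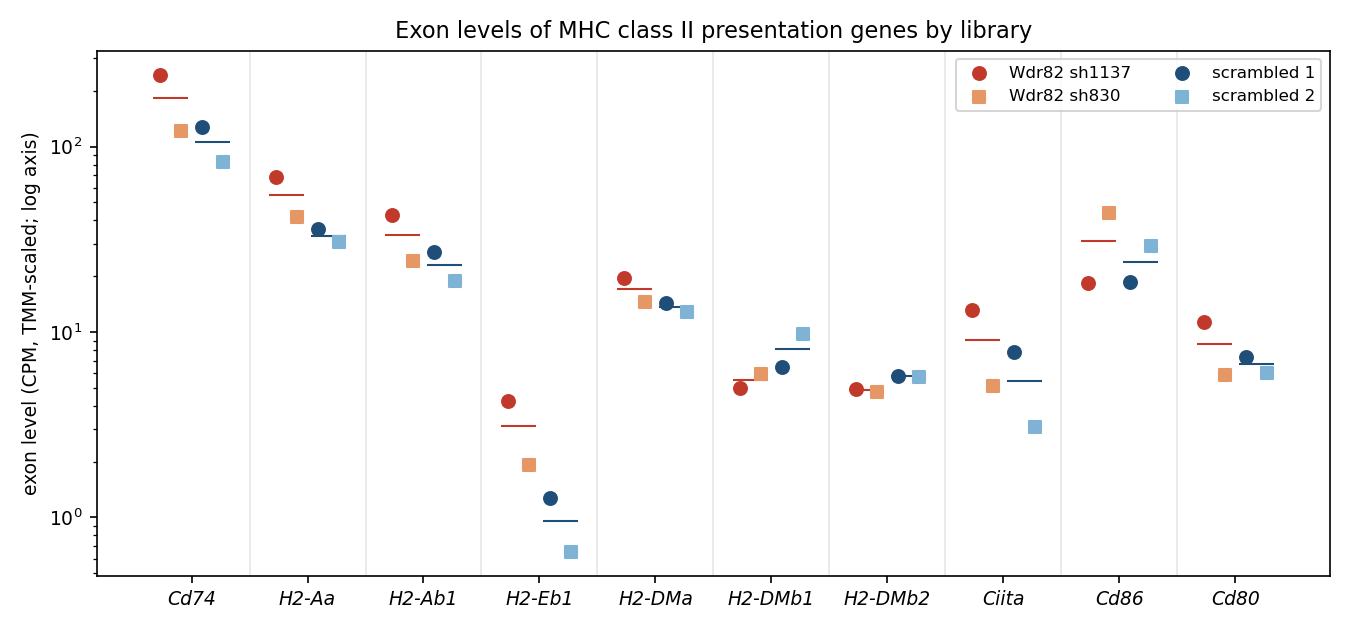
Exon level in CPM (log axis) of the 10 genes in the 4 libraries, with circles for the intron-rich pair, squares for the intron-poor pair and lines for group means (n = 2 libraries each). H2-Aa, H2-Eb1 and H2-DMa have both knockdown points above both scrambled points, and H2-DMb1 and H2-DMb2 have both below.

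H2-Aa (mm9, chromosome 17, 34419696 to 34424716, minus strand) encodes the alpha chain of the I-A molecule. It was at 68.4 CPM in sh1137 and 41.8 CPM in sh830, against 35.9 CPM in scrambled 1 and 30.4 CPM in scrambled 2. Both knockdown libraries lay above both scrambled libraries, with the highest level in sh1137. The group means were 55.1 ± 18.8 CPM with knockdown and 33.2 ± 3.85 CPM with the scrambled hairpin (SD, n = 2 each). The log2 change was 0.70 ± 0.14 (SE), an increase of 1.62-fold with an adjusted p of 0.0304 in edgeR, and the adjusted p was 0.748 with the group term alone. Within the intron-rich pair it was 1.91-fold higher with knockdown, and within the intron-poor pair 1.37-fold higher.

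H2-Ab1 (mm9, chromosome 17, 34400172 to 34406363, plus strand) encodes the beta chain that pairs with it. Its level was 42.6 CPM in sh1137 and 24.2 CPM in sh830, against 27.2 CPM in scrambled 1 and 18.7 CPM in scrambled 2. The groups overlapped, because sh830 lay below scrambled 1, while the knockdown library was the higher one within each pair. The means were 33.4 ± 13.0 CPM with knockdown and 23.0 ± 5.98 CPM with the scrambled hairpin (SD, n = 2 each). H2-Ab1 rose by 0.51 ± 0.12 on the log2 scale (SE, edgeR adjusted p = 0.0426), and with the group term alone the adjusted p was 0.935. The within-pair folds were 1.57 between sh1137 and scrambled 1 and 1.29 between sh830 and scrambled 2.

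H2-Eb1 (mm9, chromosome 17, 34442812 to 34453619, plus strand) encodes the beta chain of the second class II molecule, I-E. Its alpha chain gene, H2-Ea, was not found by symbol, and whether these cells make I-E was not tested. It had the fewest counts of the 10 genes, 160 in sh1137 and 81 in sh830, against 52 in scrambled 1 and 26 in scrambled 2. These counts correspond to 4.27 CPM in sh1137 and 1.92 CPM in sh830, against 1.27 CPM in scrambled 1 and 0.652 CPM in scrambled 2. Both knockdown libraries were above both scrambled ones, and the fold was alike in the pairs, 3.36 in the intron-rich and 2.94 in the intron-poor pair. Its log2 change of 1.66 ± 0.32 (SE) had an adjusted p of 0.03 in edgeR and of 0.729 with the group term alone.

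Cd74 (mm9, chromosome 18, 60963503 to 60972306, plus strand), the invariant chain, had the highest level of the 10, with 9174 exon counts in sh1137 and 5145 in sh830, against 5238 in scrambled 1 and 3301 in scrambled 2. In CPM it reached 244.8 in sh1137 and 121.9 in sh830, against 128.1 in scrambled 1 and 82.8 in scrambled 2. The groups overlapped, since sh830 lay just below scrambled 1. The means were 183.4 ± 86.9 CPM with knockdown and 105.4 ± 32.0 CPM with the scrambled hairpin (SD, n = 2 each). Cd74 rose by 0.75 ± 0.12 on the log2 scale (SE, edgeR adjusted p = 0.0191), and the adjusted p was 0.863 with the group term alone. It was 1.91-fold higher with knockdown within the intron-rich pair and 1.47-fold higher within the intron-poor pair.

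The DM genes did not pass the test, and they did not lie on one side of the control. H2-DMa, the alpha subunit of the peptide-exchange dimer, was at 19.6 CPM in sh1137 and 14.6 CPM in sh830, against 14.4 CPM in scrambled 1 and 12.8 CPM in scrambled 2. Both knockdown libraries lay above both scrambled ones, by a margin in sh830 that was small beside the spread within the knockdown group. Its log2 difference was 0.32 ± 0.14 (SE) with an edgeR adjusted p of 0.177, and 0.974 with the group term alone. H2-DMb1, a beta subunit, was at 4.99 CPM in sh1137 and 5.97 CPM in sh830, against 6.48 CPM in scrambled 1 and 9.76 CPM in scrambled 2. Both knockdown libraries were below both scrambled ones, with a log2 difference of -0.55 ± 0.21 (SE, edgeR adjusted p = 0.129, and 0.927 with the group term alone). H2-DMb2, the second beta subunit gene, was at 4.94 CPM in sh1137 and 4.76 CPM in sh830, against 5.82 CPM in scrambled 1 and 5.75 CPM in scrambled 2. These groups did not overlap either, and replicates lay close together, with a log2 difference of -0.25 ± 0.21 (SE, edgeR adjusted p = 0.449, and 1.0 with the group term alone).

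H2-DMb1 and H2-DMb2 are neighbours of similar sequence whose annotated spans coincide in the deposited mm9 annotation, at 34282361 to 34297174 on chromosome 17. Of the exon bases, 26.6% of H2-DMb1 and 30.0% of H2-DMb2 are shared between them. Their separate values are uncertain because of the similar sequence. Shared bases are taken to carry no count, as described below, so the sharing itself lowers levels per kb, which divide by all exon bases. Across all 10 members, both knockdown libraries lay above both scrambled ones in 3 and below both in 2, where 15.7% of genes tested lay above and 15.7% below. The knockdown library was higher within both pairs in 6 members, beside 34.9% of genes tested, and lower within both pairs in 2, beside 39.5%.

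Ciita (mm9, chromosome 16, 10480165 to 10527657, plus strand), the coactivator of class II transcription, was at 13.1 CPM in sh1137 and 5.12 CPM in sh830, against 7.83 CPM in scrambled 1 and 3.09 CPM in scrambled 2. The groups overlapped, and the split between libraries was wider than that between groups, with scrambled 1 at 2.54 times scrambled 2. Within the pairs the folds were alike, 1.67 between sh1137 and scrambled 1 and 1.66 between sh830 and scrambled 2. Its log2 difference of 0.74 ± 0.19 (SE) missed the threshold with an edgeR adjusted p of 0.0556, and the adjusted p was 0.98 with the group term alone. The 4 called members had log2 changes of 0.51 for H2-Ab1, 0.70 for H2-Aa, 0.75 for Cd74 and 1.66 for H2-Eb1. Of these, H2-Aa and Cd74 lay within 1 SE of the Ciita estimate, and H2-Ab1 and H2-Eb1 did not. Whether Ciita changed together with them was not tested.

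Cd86 and Cd80, the ligands that engage CD28 and CTLA-4 on T cells, did not pass the test, and their folds within the library pairs were unalike. Cd86 was at 18.3 CPM in sh1137 and 43.7 CPM in sh830, against 18.7 CPM in scrambled 1 and 29.0 CPM in scrambled 2. It was high in the intron-poor pair and low in the intron-rich one, so the groups overlapped. Its log2 difference was 0.29 ± 0.17 (SE, edgeR adjusted p = 0.28, and 1.0 with the group term alone). Cd80 was at 11.3 CPM in sh1137 and 5.85 CPM in sh830, against 7.36 CPM in scrambled 1 and 6.02 CPM in scrambled 2. Only sh1137 stood above the control, at 1.54 times scrambled 1, while sh830 was at 0.972 times scrambled 2. The log2 difference of Cd80 was 0.30 ± 0.23 (SE, edgeR adjusted p = 0.417, and 1.0 with the group term alone).

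Levels also followed the library split. In 8 of the 10 members the intron-rich library was the higher one in both groups, where 40.8% of genes tested were. The exceptions were Cd86 and H2-DMb1, which were higher in the intron-poor library of both groups. What the split stands for was not tested, and its part in the group difference was removed only as far as the library term does so.

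Genes can be compared with each other only per length of exon. Per kb of exon, Cd74 averaged 129.6 CPM with knockdown and 74.5 CPM with the scrambled hairpin. H2-Ab1 came next at 27.9 CPM per kb with knockdown and 19.1 CPM per kb with the scrambled hairpin, followed by H2-Aa at 17.9 CPM per kb with knockdown and 10.8 CPM per kb with the scrambled hairpin. Cd74 thus stood far above the chains it escorts, in all 4 libraries. Cd86 averaged 12.2 CPM per kb with knockdown and 9.39 CPM per kb with the scrambled hairpin, and H2-DMa 10.4 CPM per kb with knockdown and 8.28 CPM per kb with the scrambled hairpin. The libraries of these genes overlapped, so their order is not resolved. H2-DMb1 averaged 4.09 CPM per kb with knockdown and 6.06 CPM per kb with the scrambled hairpin, and H2-DMb2 4.09 CPM per kb with knockdown and 4.88 CPM per kb with the scrambled hairpin. For both genes these are low estimates, because the exon bases they share enter the length. Cd80 lay lower, at 2.77 CPM per kb with knockdown and 2.15 CPM per kb with the scrambled hairpin. At the low end were H2-Eb1 with 1.84 CPM per kb with knockdown and 0.571 CPM per kb with the scrambled hairpin, and Ciita with 1.16 CPM per kb with knockdown and 0.694 CPM per kb with the scrambled hairpin. H2-Eb1 was above Ciita in both knockdown libraries and below it in both scrambled ones, by a small margin in scrambled 2, at 0.387 CPM per kb for H2-Eb1 and 0.393 CPM per kb for Ciita. Class II genes are highly polymorphic, and mm9 is the genome of another strain than FVB/Hsd, so losses of reads at differing bases may enter these levels in both groups.

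**Figure D3:**
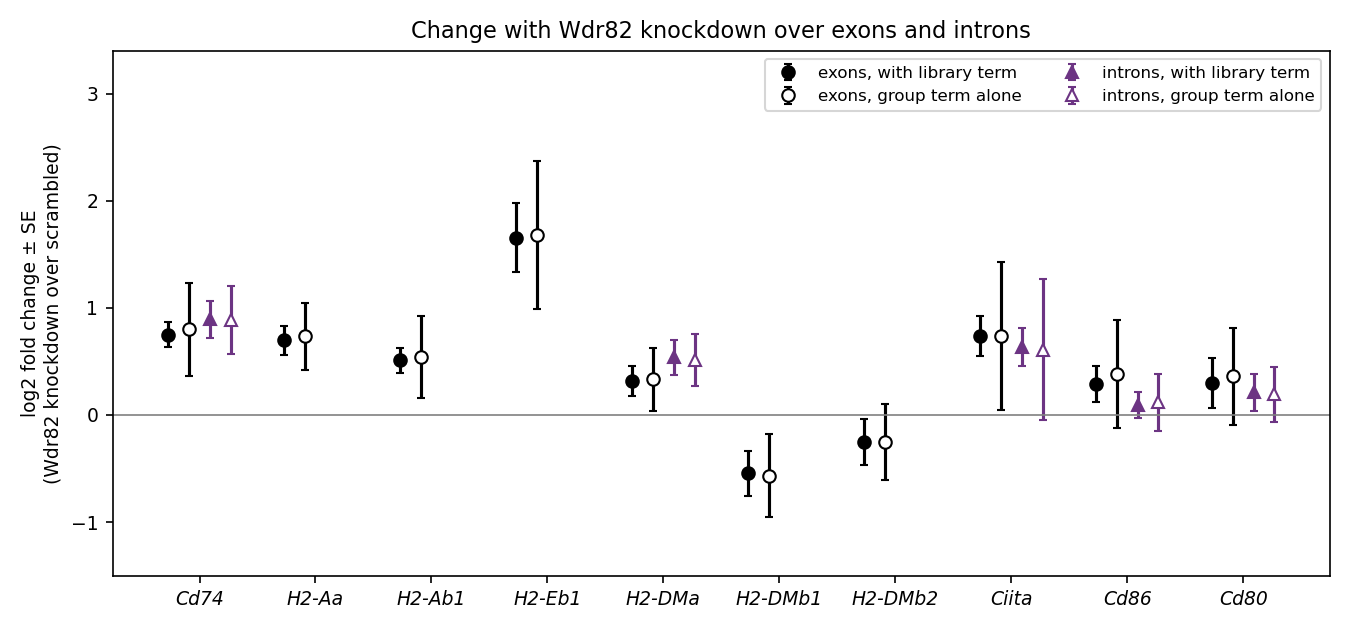
Log2 fold change of Wdr82 knockdown over scrambled with its SE for the 10 genes, over exons (circles) and, for the 5 genes tested there, over introns (triangles), with the library term (filled) and with the group term alone (open). Point estimates are close between the fits, for Cd74 exons 0.75 with the library term and 0.80 with the group term alone, and the SE is larger without the term.

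Intron counts, which read RNA not yet spliced, could be tested for 5 members. Cd74 was the 1 member that rose over introns, where 5.97% of genes tested rose and 3.93% fell. Its intron level, per 1000000 intron counts, was 18.9 CPM in sh1137 and 14.1 CPM in sh830, against 9.62 CPM in scrambled 1 and 8.20 CPM in scrambled 2. Here both knockdown libraries lay above both scrambled ones, at 1.96 and 1.72 times the scrambled library of their pair. The log2 change was 0.89 ± 0.17 (SE, edgeR adjusted p = 0.0294), from 455 counts in sh1137 and 128 in sh830, against 228 in scrambled 1 and 67 in scrambled 2. With the group term alone 0 of the 5 members were called in edgeR, and the adjusted p of Cd74 was 0.793. At an unadjusted p under 0.05 that fit had 1 member higher (Cd74), where 4.56% of genes tested were higher and 1.14% lower.

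H2-DMa introns were at 69.6 CPM in sh1137 and 59.0 CPM in sh830, against 38.6 CPM in scrambled 1 and 51.9 CPM in scrambled 2. The groups did not overlap, and the log2 difference was 0.54 ± 0.16 (SE, edgeR adjusted p = 0.0902). Ciita introns were at 20.0 CPM in sh1137 and 7.91 CPM in sh830, against 13.4 CPM in scrambled 1 and 4.77 CPM in scrambled 2, with overlapping groups as over its exons. Their log2 difference was 0.63 ± 0.18 (SE, edgeR adjusted p = 0.0758), close to the 0.74 of the exons. Cd86 introns, at a log2 difference of 0.10 ± 0.12 (SE, edgeR adjusted p = 0.658), and Cd80 introns, at 0.21 ± 0.17 (SE, edgeR adjusted p = 0.477), overlapped between the groups. Non-overlap with knockdown above was seen in 2 of the 5 members, Cd74 and H2-DMa, where 17.1% of genes tested over introns had it. The knockdown library was higher within both pairs in 3 of the 5, Cd74, H2-DMa and Ciita, beside 34.0% of genes tested.

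The intron change was not found to differ from the exon change in any of the 5 members, of which 0 were called in the edgeR interaction test, where 2.1% of genes tested were called in the direction of introns and 2.44% in that of exons. The log2 difference of intron minus exon change was 0.06 ± 0.15 for Cd74 (SE, adjusted p = 0.892), 0.18 ± 0.15 for H2-DMa (adjusted p = 0.608) and -0.14 ± 0.26 for Ciita (adjusted p = 0.85). It was -0.21 ± 0.12 for Cd86 (adjusted p = 0.356) and -0.14 ± 0.18 for Cd80 (adjusted p = 0.779). The smallest unadjusted p of the 5 in this interaction test was 0.0688, for Cd86. The SEs of 0.12 to 0.26 limit how small a difference could have been seen. They rest almost wholly on variance pooled over genes and do not give the spread of each gene on its own.

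Cd74 stood apart from the other 4 in how little intron signal it had. Its intron counts per bp were 0.950% of its exon counts per bp in sh1137 and 0.476% in sh830, against 0.834% in scrambled 1 and 0.389% in scrambled 2. In H2-DMa the share was 25.6% in sh1137 and 9.80% in sh830, against 17.4% in scrambled 1 and 9.35% in scrambled 2. In Ciita it was 19.5% in sh1137 and 6.61% in sh830, against 19.7% in scrambled 1 and 6.29% in scrambled 2. In all 5 genes the share followed the library pair, so levels of this share are compared only within a pair.

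**Figure D4:**
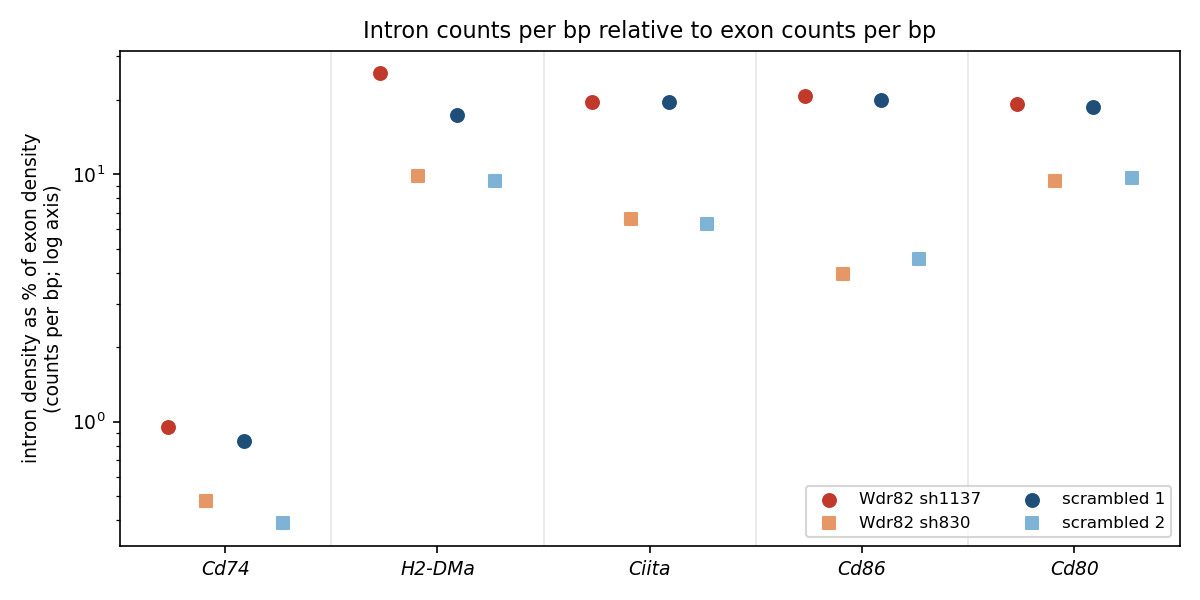
Intron counts per bp as a percentage of exon counts per bp (log axis) for the 5 members with tested introns, 1 point per library, circles for the intron-rich and squares for the intron-poor pair. Cd74 lies under 1% in every library, and the other 4 genes lie between 3.93% and 25.6%.

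The 3 class II chains and H2-DMb1 had 0 intron counts in all 4 libraries, and H2-DMb2 had 4 in sh1137 and 4 in sh830, against 3 in scrambled 1 and 1 in scrambled 2. In the deposited annotation, all 1946 intron bases of H2-Aa, all 4992 of H2-Ab1 and all 9123 of H2-Eb1 lie inside an intron of 338000 bp assigned to Notch4 (mm9, chromosome 17, 34363240 to 34701239). That interval holds 13 genes, and the introns of all 13 are at 0. H2-DMb1 and H2-DMb2 share 93.8% and 92.8% of their intron bases with each other. In the whole table, introns that lie fully within introns of other genes had no count in 285 of 285 genes overlapped on the same strand and in 249 of 249 overlapped on the opposite strand. Among genes without such overlap and with at least 1000 exon counts over the 4 libraries, 0.136% (12 of 8843) had none. For these members a change in unspliced RNA was therefore not measured.

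Around the members, 1 of the authors' 1107 regions lay within 50 kb of a member, 29504 bp from Cd74 (mm9, chromosome 18, 60908500 to 60933999, named for Rps14). It held 924 counts in sh1137 and 316 in sh830, against 339 in scrambled 1 and 117 in scrambled 2. The groups overlapped, since sh830 was below scrambled 1, and the knockdown library was higher within each pair. Its log2 change was 1.47 ± 0.17 (SE, edgeR adjusted p = 0.0111), and the adjusted p was 0.838 with the group term alone. The regions were chosen by the authors on a hairpin comparison, so this direction is not independent evidence.

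Among 15 further genes of class II trafficking and endosomal processing found in the files, 14 were tested, with a median log2 change of 0.05. Of the 14, 1 rose and 0 fell, where 6.06% of all genes tested rose and 7.79% fell. Ctsl, cathepsin L, a lysosomal protease that can degrade the invariant chain, was at 400.4 CPM in sh1137 and 429.0 CPM in sh830, against 251.4 CPM in scrambled 1 and 254.0 CPM in scrambled 2. It rose by 0.71 ± 0.09 on the log2 scale (SE, edgeR adjusted p = 0.013), with the libraries of each group close together and no overlap between groups. H2-Ob, a subunit of the DO dimer that inhibits DM, was at 5.71 CPM in sh1137 and 5.14 CPM in sh830, against 3.06 CPM in scrambled 1 and 3.84 CPM in scrambled 2, and missed the threshold (edgeR adjusted p = 0.133). Its partner H2-Oa had a log2 difference of 0.38 (edgeR adjusted p = 0.466). With the group term alone 0 of these genes were called.

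Of 19 transcription factors and interferon gamma pathway genes that act on class II promoters or on Ciita, 1 rose and 2 fell. These counts stand beside 6.06% of all genes tested that rose and 7.79% that fell, and the median log2 change was 0.11. Ifngr1, the ligand-binding chain of the interferon gamma receptor, was at 140.8 CPM in sh1137 and 195.0 CPM in sh830, against 110.7 CPM in scrambled 1 and 141.4 CPM in scrambled 2, an increase of 0.41 ± 0.09 on the log2 scale (SE, edgeR adjusted p = 0.0356) with sh1137 just below scrambled 2. Nfyc, a subunit of the Y box factor NF-Y, was at 16.5 CPM in sh1137 and 30.9 CPM in sh830, against 31.0 CPM in scrambled 1 and 41.8 CPM in scrambled 2. It fell by 0.67 ± 0.14 on the log2 scale (SE, edgeR adjusted p = 0.0359). Spi1, the macrophage factor PU.1, fell by 0.45 ± 0.10 (SE, edgeR adjusted p = 0.0356). Socs1, an inhibitor of interferon signalling, was at 0.801 CPM in sh1137 and 0.972 CPM in sh830, against 1.49 CPM in scrambled 1 and 2.51 CPM in scrambled 2, and its log2 difference of -1.14 did not pass (edgeR adjusted p = 0.0919). Creb1 had a log2 difference of -0.47 (edgeR adjusted p = 0.126).

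Class I presentation genes, which load peptides for cytotoxic T cells, did not move together. Of 17 tested, 2 rose and 2 fell, where 6.06% of all genes tested rose and 7.79% fell, with a median log2 change of -0.06. Tap2, a subunit of the peptide transporter, rose by 0.49 ± 0.09 (SE, edgeR adjusted p = 0.026), at 115.1 CPM in sh1137 and 102.6 CPM in sh830, against 86.8 CPM in scrambled 1 and 68.5 CPM in scrambled 2. H2-K1, a class I heavy chain of the same polymorphic family, rose by 0.47 ± 0.09 (SE, edgeR adjusted p = 0.0321). Psmb10, an immunoproteasome subunit, fell by 0.60 ± 0.10 (SE, edgeR adjusted p = 0.0201), and Erap1, which trims peptides in the endoplasmic reticulum, fell by 0.36 ± 0.08 (SE, edgeR adjusted p = 0.0442). Calr (log2 difference -0.36, edgeR adjusted p = 0.073) and B2m (log2 difference 0.33, edgeR adjusted p = 0.0926) were not called.

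Of 13 other costimulators and checkpoint ligands tested, 1 rose and 1 fell, where 6.06% of all genes tested rose and 7.79% fell. Their median log2 change was 0.19. Vsir, a checkpoint ligand of myeloid cells, was at 300.5 CPM in sh1137 and 414.3 CPM in sh830, against 198.9 CPM in scrambled 1 and 283.8 CPM in scrambled 2, and rose by 0.57 ± 0.09 on the log2 scale (SE, edgeR adjusted p = 0.0185). Cd48, an adhesion ligand of CD2 and CD244, was at 40.9 CPM in sh1137 and 65.2 CPM in sh830, against 85.2 CPM in scrambled 1 and 121.3 CPM in scrambled 2, and fell by 0.98 ± 0.09 (SE, edgeR adjusted p = 0.00691). Neither Tnfsf4 (log2 difference 1.18, edgeR adjusted p = 0.267) nor Cd83 (log2 difference 0.49, edgeR adjusted p = 0.0756) passed.

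Because B cells and dendritic cells carry far more class II than resting macrophages, their markers stand beside the result. In bulk RNA, fewer cells of a type and less RNA per cell cannot be told apart. Macrophage markers were abundant in all libraries, with a sum over 12 genes of 9331 to 15970 CPM with knockdown and 10780 to 13060 CPM with the scrambled hairpin. Of these 12 markers, 0 rose and 3 fell, where 6.06% of all genes tested rose and 7.79% fell, with a median log2 change of -0.07. Fcgr1, the high-affinity IgG receptor, fell by 1.51 ± 0.08 (SE, edgeR adjusted p = 0.00305), at 41.6 CPM in sh1137 and 51.6 CPM in sh830, against 119.8 CPM in scrambled 1 and 145.7 CPM in scrambled 2. Cd68, a lysosomal glycoprotein, fell by 0.94 ± 0.10 (SE, edgeR adjusted p = 0.00848), and Spi1 was the third. Cd163 (log2 difference 0.33, edgeR adjusted p = 0.0841) and Cd14 (-0.27, edgeR adjusted p = 0.43) did not pass.

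B cell markers summed to 14.4 to 17.4 CPM with knockdown and 16.6 to 17.9 CPM with the scrambled hairpin over 11 genes, and the B cell-defining genes Pax5, Blk and Fcmr had 0 counts in all 4 libraries. Over exons 0 of 7 tested rose and 1 fell, where 6.06% of all genes tested rose and 7.79% fell, with a median log2 change of 0.32. Cd79b was the 1 that fell, by 1.58 ± 0.30 on the log2 scale (SE, edgeR adjusted p = 0.0281). Ms4a1 (log2 difference 2.90, edgeR adjusted p = 0.0841) and Ebf1 (1.07, edgeR adjusted p = 0.422) were not called over exons. Over introns 2 of 5 tested rose and 0 fell, where 5.97% of all genes tested rose and 3.93% fell, with a median log2 change of 1.27. Ms4a1, the antigen CD20, had 41 intron counts in sh1137 and 67 in sh830, against 3 in scrambled 1 and 12 in scrambled 2 (log2 change 2.81 ± 0.53, SE, edgeR adjusted p = 0.0271). Cr2, a complement receptor named here after its values were seen, had 186 intron counts in sh1137 and 56 in sh830, against 69 in scrambled 1 and 24 in scrambled 2 (log2 change 1.27 ± 0.28, SE, edgeR adjusted p = 0.04). T cell markers, of which 5 of 9 were tested, gave 1 that rose and 0 that fell over exons, beside 6.06% and 7.79% of all genes tested. Their median log2 change was 0.61. Over introns 0 of 4 were called, beside 5.97% of all genes that rose and 3.93% that fell, with a median of 0.79. The gene that rose was Lck, a kinase of T cells, at 3.60 CPM in sh1137 and 4.03 CPM in sh830, against 0.783 CPM in scrambled 1 and 1.36 CPM in scrambled 2 (log2 change 1.87 ± 0.33, SE, edgeR adjusted p = 0.0247). Cd3d was at 1.36 CPM in sh1137 and 0.261 CPM in sh830, against 0.978 CPM in scrambled 1 and 0.301 CPM in scrambled 2, and did not pass. Cd3e and Cd3g had 0 to 0.0267 CPM with knockdown and 0 to 0.0245 CPM with the scrambled hairpin. Cd4 (log2 difference 0.98, edgeR adjusted p = 0.31) and Cd8a (0.61, edgeR adjusted p = 0.626) did not pass, and the sum over the 9 genes was 71.5 to 101.6 CPM with knockdown and 60.6 to 77.9 CPM with the scrambled hairpin, most of it from Cd28.

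Of 12 dendritic cell markers, 10 were tested, with a median log2 change of 0.47 over exons. Of the 10, 3 rose and 0 fell, where 6.06% of all genes tested rose and 7.79% fell. The sum over the 12 genes was 28.1 CPM in sh1137 and 30.2 CPM in sh830, against 14.3 CPM in scrambled 1 and 12.6 CPM in scrambled 2. Fscn1 made up 11.5 CPM of the sum in sh830, and without it the other 11 genes summed to 27.5 CPM in sh1137 and 18.7 CPM in sh830, against 14.1 CPM in scrambled 1 and 11.1 CPM in scrambled 2. Itgax, the integrin CD11c, was at 16.1 CPM in sh1137 and 10.3 CPM in sh830, against 7.70 CPM in scrambled 1 and 5.72 CPM in scrambled 2, and rose by 0.96 ± 0.17 (SE, edgeR adjusted p = 0.0244). Xcr1, a chemokine receptor, was at 4.46 CPM in sh1137 and 3.41 CPM in sh830, against 1.59 CPM in scrambled 1 and 1.20 CPM in scrambled 2, and rose by 1.49 ± 0.29 (SE, edgeR adjusted p = 0.0294). Fscn1, an actin-bundling protein of mature dendritic cells, was called at 2.63 ± 0.37 (SE, edgeR adjusted p = 0.0159), but it stood at 0.560 CPM in sh1137 and 11.5 CPM in sh830, against 0.147 CPM in scrambled 1 and 1.56 CPM in scrambled 2, and without sh830 its log2 difference was -0.61. Flt3 was near 0, at 0 to 0.347 CPM with knockdown and 0.226 to 0.342 CPM with the scrambled hairpin. Zbtb46, a transcription factor of classical dendritic cells, was at 1.12 CPM in sh1137 and 0.877 CPM in sh830, against 0.611 CPM in scrambled 1 and 0.251 CPM in scrambled 2. Both knockdown libraries lay above both scrambled ones, but Zbtb46 did not pass (edgeR adjusted p = 0.127). Flt3, with a log2 difference of -1.07, did not pass either (edgeR adjusted p = 0.516). Over introns 1 of 7 dendritic cell markers tested rose, Itgax, and 0 fell, where 5.97% of all genes tested rose and 3.93% fell. The part of B, T and dendritic cells in the class II result was not tested. With the group term alone 0 genes of any of these lists were called in edgeR.

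Across the 4 libraries, the genes whose deviations of log2 CPM from their own mean were nearest to those of Cd74 were Kmt5c, Idua, Sema4b, Zfp704 and Appl2, at Euclidean distances of 0.0648 to 0.132 among 8972 genes with a mean of at least 10 CPM. Kmt5c, a histone methyltransferase, was at 65.7 CPM in sh1137 and 32.4 CPM in sh830, against 36.0 CPM in scrambled 1 and 22.7 CPM in scrambled 2. It shows the same order of libraries as Cd74, with sh1137 highest, scrambled 2 lowest, and sh830 and scrambled 1 between them. Nearest to the mean of H2-Aa, H2-Ab1 and H2-Eb1 were Zc3h4, Sema4b, Zfp704, Kif13b and Ankrd13d, at distances of 0.0687 to 0.166. Zc3h4, a zinc finger protein, was at 217.9 CPM in sh1137 and 118.4 CPM in sh830, against 110.1 CPM in scrambled 1 and 81.7 CPM in scrambled 2. With 4 libraries such likeness is a description only, since 11 genes lay within 0.2 of Cd74 and 8 within 0.2 of the chains. Where 2 libraries a group are compared, an exact permutation test of a single value cannot go below p = 0.33.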

How the data were processed

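Ribosomal RNA-depleted total RNA was measured in 4 untreated libraries (2 Wdr82 knockdown, 2 scrambled) of a series of 14 samples; the other 10 were not analysed here. The authors deposited, for exons and for introns, a table of unnormalized counts per gene, the exon tables with 1107 regions besides. Build mm9 and the tools SICER, TopHat 1.3.1, Cuffdiff 2.1.1 and Cufflinks 2.1.1 are named, per the submitters' processing notes; the tool that counted reads and its use of strand are not given in the sources used here. Intervals shared by genes on either strand carried no count.

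One model was fitted to exon counts of all genes and regions with edgeR 4.0.16 in R 4.3.3: TMM factors from genes, filterByExpr, group and library terms, quasi-likelihood F-tests, Benjamini-Hochberg adjustment over all features tested, threshold 0.05. Introns were fitted likewise with factors of their own, and intron against exon change as an interaction with a term for each library. Symbols were matched by identifier for 21615 of 21761 genes. The fits were tested on simulated counts. The members, gene lists and library term were chosen with earlier results of these data known. From each other list the text names up to 3 called genes per direction with the smallest p and up to 2 not called with the largest log2 difference. The 5 genes nearest to Cd74 and to the chains were taken by Euclidean distance with a pseudocount of 0.5 CPM. Alternatives were the group term alone, a crossed library term, RLE factors, no filter on low counts, DESeq2 1.42.0 and each library left out.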

Additional observations from a re-analysis of the deposited data

How the results depend on the processing

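The calls depended on the library term. With the group term alone edgeR called 0 genes higher and 0 lower over exons, over introns and for intron minus exon change, and 0 members, and the region near Cd74 had a log2 change of 1.52 that no longer passed. A crossed library term (sh1137 with scrambled 2) called 23 genes higher and 1 lower over exons, 60 and 2 over introns, and 0 members. DESeq2 with the group term alone called 160 higher and 22 lower over exons, 149 and 8 over introns, and 0 members. DESeq2 with the library term called 2 members over exons (Cd74 and H2-Aa), and over introns 0 members and 315 genes lower. RLE factors gave 2 members over exons (Cd74 and H2-Eb1) and 2 over introns (Cd74 and H2-DMa), with 915 genes lower over introns. Without the filter on low counts, introns gave 1233 genes higher, 1133 lower and 3 members (Cd74, H2-DMa and Ciita), and the 4 exon calls were kept. With each library left out in turn, under the group term alone, 13 to 190 genes were higher and 1 to 28 lower over exons, 5 to 211 and 0 to 42 over introns, and 0 to 0 members. The cause of these changes was not tested, except that leaving out a library leaves fewer samples and no library term.

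Over 10 alternatives the exon log2 change stayed above 0 for Cd74 (0.20 to 1.23), H2-Aa (0.33 to 1.06), H2-Ab1 (0.07 to 0.91) and H2-Eb1 (0.99 to 2.23). The lowest of each came without sh1137, where the adjusted p was 1.0, and the call was kept in 3 of 10 for Cd74, 2 for H2-Aa, 1 for H2-Ab1 and 2 for H2-Eb1. With 1 library left out Fscn1 ran between -0.61 (without sh830) and 5.35 (without scrambled 2). The library term itself pairs the libraries, by their intron share and not by a label. By labelled replicate number, no paired analysis was possible because the labels number the scrambled libraries and name the knockdown ones by hairpin. Depth limits H2-Eb1 most, with 26 to 160 exon counts a library.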
